A study of Mus musculus with 12 samples.

Results

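The 10 genes described here encode costimulatory receptors of CD4+ T cells and members of the tumour necrosis factor (TNF) superfamily. They were listed by name, found by symbol in the deposited tables and read by Ensembl identifier from the counts, so that they are 10 of 55414 gene records. Of these, 8 encode receptors (Tnfrsf4, Tnfrsf9, Tnfrsf18, Tnfrsf1b, Tnfrsf19, Cd27, Cd28 and Icos) and 2 encode ligands (Cd40lg and Tnfsf8). All 10 had counts in each of the 12 libraries, and all 10 passed the filter on low counts in every comparison.

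T cell activation needs a signal through the T cell receptor and a costimulatory signal, which CD28 gives when it binds CD80 or CD86 on an antigen-presenting cell. Receptors of the TNF receptor superfamily, among them OX40 (Tnfrsf4), 4-1BB (Tnfrsf9) and GITR (Tnfrsf18), are induced by activation, recruit TRAF adapters, turn on NF-kB and prolong the survival and division of the cell. CD40L and CD30L (CD153), the products of Cd40lg and Tnfsf8, are ligands that the T cell itself displays, and the study takes CD4+ T cells that carry CD153 together with PD-1 as senescent.

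RNA-seq was performed on splenic CD4+ T cells of wild-type male BALB/c mice aged 18 weeks, with or without ligature-induced periodontitis (LIP), in which a silk thread tied around a molar inflames the gum. The CTL group comprised healthy control mice without a ligature. In both groups the cells were purified by negative selection and taken uncultured (day 0) or after 2 days in culture with antibodies to CD28 and TCRbeta and with IL-2 (day 2), a culture that the submitters use as a model of homeostatic proliferation, though the study limits its reading to the stress of proliferation after activation. Each of the 4 groups had 3 libraries. In the labels of day 2 the antibody given beside that to TCRbeta is anti-CD28 only for CTL 92 and LIP 90. It is anti-CD29 in those of CTL 93 and LIP 96 and anti-CD30 in the remaining pair, whereas the protocol gives anti-CD28 throughout. The number in a library's name was not stated to be an animal, and some numbers occur in both groups on the same day (94 on day 0, 97 on day 2), so the spread between libraries may be partly technical.

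Total counts ran from 6249018 to 7845676 a library on day 0 and from 8691699 to 12866718 on day 2. Markers of CD4+ T cells were present and those of CD8+ T cells nearly absent: genes of the T cell receptor complex and Cd4 summed to 1682 to 2257 CPM (counts scaled to library size) in each library, and the 2 CD8 genes to 4.42 to 13.2. Some libraries did not stand with their group. On the first principal component of day 0, CTL 94, which shares its number with LIP 94, lay among the LIP libraries (7.34 to 20.9) and away from CTL 88 and CTL 89 (-20.4 and -41.8). On that of day 2, LIP 90 (-8.50) lay nearer to the CTL libraries (-37.6 to -19.5) than to LIP 96 and LIP 97 (47.2 and 43.2). Differences between LIP and CTL that pass a threshold or set the groups apart are therefore given with and without these 2 libraries where that changed the call. Both were picked from these same data because they lay near the other group, so that leaving them out favours calls. The share of genes called rose from 0.427% to 4.59% on day 0 without CTL 94, and from 0% to 13.9% on day 2 without LIP 90. Calls gained in this way are a description and no separate support.

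The members lie on 5 chromosomes of the mouse genome (build GRCm39), 5 of them on chromosome 4. There Tnfrsf4 (ENSMUSG00000029075, chr4:156098293-156101069) ends 9552 bases before the start of Tnfrsf18 (ENSMUSG00000041954, chr4:156110621-156113352), and both are on the plus strand. Tnfrsf9 (ENSMUSG00000028965), Tnfrsf1b (ENSMUSG00000028599) and Tnfsf8 (ENSMUSG00000028362) share that chromosome at chr4:150999019-151030559, chr4:144938938-144973477 and chr4:63749542-63779592. On chromosome 1, Cd28 (ENSMUSG00000026012, chr1:60755959-60812518) lies 204568 bases before Icos (ENSMUSG00000026009, chr1:61017086-61039479). Tnfrsf19 (ENSMUSG00000060548) is at chr14:61201283-61284366, Cd27 (ENSMUSG00000030336) at chr6:125209585-125213988 and Cd40lg (ENSMUSG00000031132) at chrX:56257405-56269902. Cd27 overlaps Vamp1 on the opposite strand, and Icos overlaps the record Gm37039 on the same strand, so that reads could be shared in counting. The library kit kept strand, but whether the counting used it was not stated.

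To see how this culture changed these genes, day 2 was compared with day 0 within each group. In the CTL group 8 of 10 members changed at an adjusted p under 0.05 by edgeR's quasi-likelihood test, against 69% of the 15475 genes tested, with 6 higher (35.3% of genes) and 2 lower (33.7%). In the LIP group 8 of 10 did, against 71.8% of the same genes, again with 6 higher (36.6%) and 2 lower (35.2%). Tnfrsf4, Tnfrsf9, Tnfrsf18, Icos, Cd28 and Tnfsf8 rose in both groups, and each of these 6 had a log2 fold change over 1, which 21.1% of genes passed in that direction in CTL and 22% in LIP. In these bulk samples, fewer cells of a type and less RNA per cell cannot be told apart.

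**Figure D1:**
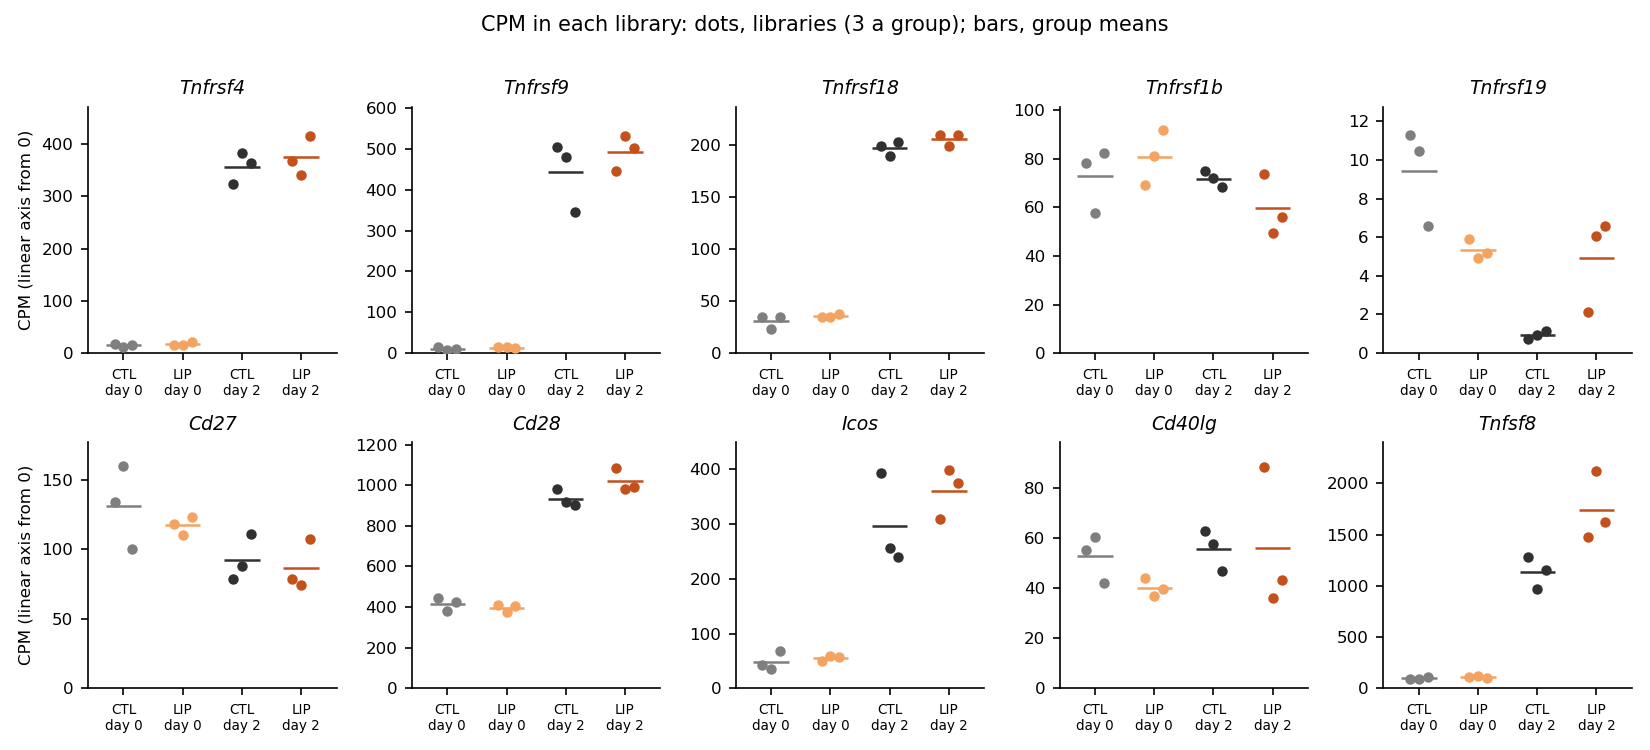
CPM (linear axis from 0) of the 10 members in each library, with CTL in grey and black and LIP in light and dark orange. Dots are libraries, 3 in each group, and bars are group means. Tnfrsf4, Tnfrsf9, Tnfrsf18, Cd28, Icos and Tnfsf8 are higher in every day 2 library than in any day 0 library, and Tnfrsf19 is lowest in the 3 CTL libraries of day 2.

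Among the TNF receptor genes of the list, Tnfrsf9 changed most. On day 0 CTL 88, 89 and 94 had 14.0, 7.45 and 9.32 CPM, while LIP 92, 93 and 94 had 14.3, 14.0 and 11.5. On day 2 CTL 92, 93 and 97 had 505, 482 and 347, while LIP 90, 96 and 97 had 447, 532 and 502. The days did not overlap, and the log2 fold change was 5.45 (SE 0.22) in CTL and 5.22 (SE 0.21) in LIP. Its product, 4-1BB, is a costimulatory receptor of activated T cells.

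Tnfrsf4, which encodes OX40, went from 17.3, 11.5 and 16.1 CPM in CTL and 15.1, 15.7 and 20.5 in LIP on day 0 to 323, 383 and 364 in CTL and 368, 341 and 416 in LIP on day 2. The mean was 23.8-fold higher on day 2 in CTL and 21.9-fold higher in LIP, with log2 fold changes of 4.58 (SE 0.17) and 4.45 (SE 0.17). Every day 2 library lay far above every day 0 library, while CTL and LIP overlapped on both days. Tnfrsf18, which encodes GITR, a receptor also carried by resting regulatory T cells, rose less. It had 35.0, 23.1 and 34.8 CPM in CTL and 34.9, 34.4 and 37.5 in LIP on day 0, and 198, 189 and 203 in CTL and 209, 198 and 209 in LIP on day 2. Its log2 fold change was 2.67 (SE 0.14) in CTL and 2.53 (SE 0.13) in LIP.

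The other 3 TNF receptor genes of the list did not rise. Tnfrsf1b, which encodes the TNF receptor TNFR2, had a mean of 72.9 ± 13.4 CPM in CTL on day 0 (SD, n = 3) and 71.8 ± 3.28 on day 2, with a log2 fold change of -0.020 (SE 0.16). In LIP the means were 80.7 ± 11.2 and 59.7 ± 12.5, and it fell by 0.43 on the log2 scale (SE 0.16, edgeR adjusted p = 0.0283), though the days overlapped through LIP 90 (73.7 CPM). That call was lost without LIP 93 (adjusted p = 0.0712) or LIP 94 of day 0 (0.130), and without LIP 96 (0.128) or LIP 97 of day 2 (0.0865). Cd27, a receptor of naive and memory T cells, fell from 131 ± 29.9 to 92.5 ± 16.9 CPM in CTL (log2 fold change -0.50, SE 0.18) and from 117 ± 6.64 to 86.7 ± 18.1 in LIP (-0.44, SE 0.18). Its edgeR adjusted p was 0.0229 in CTL and 0.0423 in LIP, and leaving out 1 library could raise it to 0.130 and 0.155: the call was lost without CTL 88 or 89 of day 0 or CTL 92 or 93 of day 2 in CTL, and without any 1 library of LIP but LIP 97 of day 2, or without CTL 88 of day 0 or CTL 93 of day 2, in LIP.

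Tnfrsf19, which encodes the receptor TROY, was the least abundant member. Its counts were 75, 87 and 50 in CTL on day 0, and 43, 35 and 39 in LIP. On day 2 they were 7, 8 and 10 in CTL but 24, 65 and 51 in LIP. In CTL the mean of 9.43 ± 2.52 CPM on day 0 and 0.942 ± 0.198 on day 2 differed 10.0-fold, with no overlap (log2 fold change -3.31, SE 0.41, edgeR adjusted p = 8.98e-06). In LIP the corresponding means were 5.34 ± 0.514 and 4.94 ± 2.43, the days overlapped, and the log2 fold change was -0.13 (SE 0.35, adjusted p = 0.743). Counts summed over the 3 libraries and divided by their total counts gave exact Poisson 95% intervals of 0.571 to 1.302 CPM for CTL and 3.49 to 4.90 CPM for LIP on day 2, which cover counting error only and leave out the TMM factor.

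Both receptors of the CD28 family rose. Cd28, whose product the culture's antibody binds, had 443, 378 and 425 CPM in CTL and 412, 374 and 408 in LIP on day 0, and 982, 918 and 903 in CTL and 1086, 983 and 993 in LIP on day 2. The days did not overlap, with log2 fold changes of 1.17 (SE 0.09) in CTL and 1.36 (SE 0.09) in LIP. Icos, the inducible costimulator that supports T cell help to B cells, rose by 2.62 (SE 0.24) on the log2 scale in CTL and by 2.70 (SE 0.24) in LIP. Its CPM went from 43.0, 34.4 and 67.5 in CTL and 49.9, 58.4 and 57.5 in LIP to 393, 257 and 239 in CTL and 308, 398 and 375 in LIP. CTL 94, with 67.5, was the highest library of day 0.

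The 2 ligands differed from each other. Tnfsf8, which encodes CD30L (CD153), had 93.7, 88.8 and 107.8 CPM in CTL and 107.7, 117 and 102 in LIP on day 0. On day 2 it had 1280, 970 and 1158 in CTL and 1481, 2122 and 1626 in LIP. The mean was 11.7-fold higher on day 2 in CTL, and the log2 fold change was 3.55 (SE 0.16) there and 4.00 (SE 0.16) in LIP. Cd40lg, the ligand through which T cells help B cells, had means of 52.7 ± 9.40 and 55.9 ± 8.04 CPM in CTL on the 2 days, and 40.3 ± 3.64 and 56.0 ± 28.4 in LIP. Its log2 fold changes of 0.08 (SE 0.26) and 0.48 (SE 0.27) did not pass the test (edgeR adjusted p = 0.789 and 0.118), and LIP 90 alone held 88.5 CPM on day 2 against 36.1 and 43.4 in LIP 96 and 97. The change in LIP was 0.73 without LIP 96 (adjusted p = 0.0163), -0.017 without LIP 90 and 0.51 with no filter on low counts (0.00477).

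**Figure D2:**
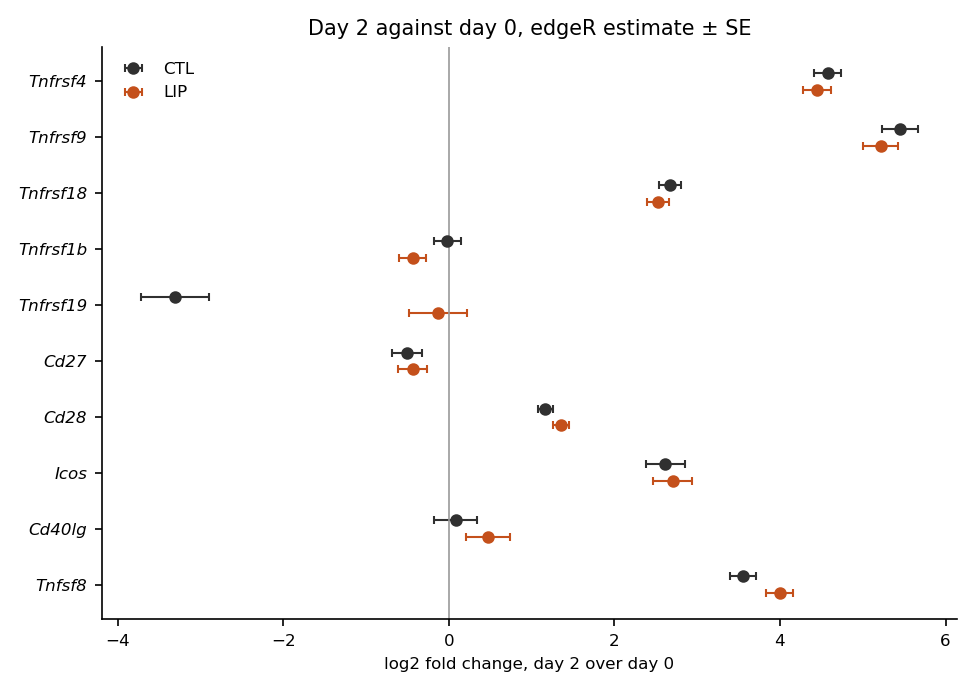
Log2 fold change of day 2 over day 0 for each member in CTL (black) and LIP (orange), with dots for edgeR's estimate and bars for its standard error. The 6 members that rose lie between 1.17 and 5.45, and Tnfrsf19 is at -3.31 in CTL and -0.13 in LIP.

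The size of the day 2 changes depended on the scaling, since upper-quartile factors moved the median of all genes by -0.29 in CTL and -0.32 in LIP and total counts moved it by -0.19 and -0.36. The 6 members that rose were higher under each scaling, with Cd28 the smallest at 0.88 in CTL. Levels were compared between genes per kb of the longest annotated transcript. On day 0, Cd28 (95.6 ± 7.67 CPM per kb in CTL) and Cd27 (83.3 ± 19.0) were the highest, and both lay above the other 8 members in every library. They overlapped in CTL but not in LIP, where Cd28 was at 91.5 ± 4.78 and Cd27 at 74.4 ± 4.22. On day 2 in CTL the order was led by Tnfrsf4 (327 ± 27.8) and Tnfsf8 (298 ± 41.0), which overlapped, then Cd28 (215 ± 9.59) and Tnfrsf9 (207 ± 39.8), which overlapped, then Tnfrsf18 (157 ± 5.57), Icos (91.3 ± 26.0) and Cd27 (58.8 ± 10.7). In LIP on day 2, Tnfsf8 (457 ± 88.1 CPM per kb) stood above Tnfrsf4 (344 ± 35.1) with no overlap. With the mean transcript length instead, Tnfsf8 had rank 4 in CTL and rank 1 in LIP. Its lead in LIP was then smaller than its SD, at 461 ± 88.9 CPM per kb against 451 ± 25.1 for Cd28 and 435 ± 44.4 for Tnfrsf4. The libraries of Tnfsf8 and Tnfrsf4 overlapped with that length.

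**Figure D3:**
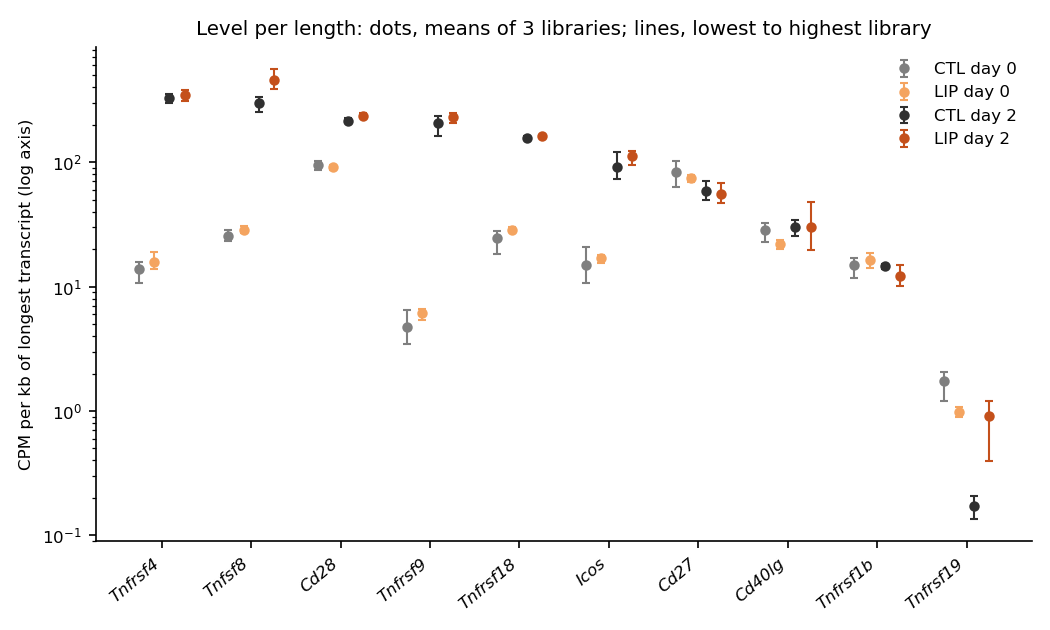
Level per length of the 10 members in the 4 groups, in CPM per kb of the longest transcript on a log axis. Dots are means of 3 libraries and lines run from the lowest to the highest library. Cd28 and Cd27 lead on day 0, Tnfrsf4 leads in CTL and Tnfsf8 in LIP on day 2, and Tnfrsf19 is lowest in every group.

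The bases before the start of a gene are shown for members that changed in different directions, since NF-kB, AP-1 and NFAT act downstream of the T cell receptor and of these receptors. For each member the 250 bases before the start of its canonical transcript in the GENCODE annotation were searched on both strands for GGG and CC with any 5 bases between them (NF-kB), TGA and TCA with any 1 base between them (AP-1) and TGGAAA (NFAT). At least 1 match was found in 5 of 10 members: NF-kB in 4, AP-1 in 1 and NFAT in 2. Of the 21770 protein-coding promoters of the same length, 47.8% held the NF-kB letters, 6.17% the AP-1 letters and 19.4% the NFAT letters. Printed below are Tnfsf8 (chr4:63779593-63779842, minus strand) and Icos (chr1:61016836-61017085, plus strand), which rose on day 2, and Cd27 (chr6:125213989-125214238, minus strand), which fell, in GRCm39, 5′ to 3′ in the direction of the gene and ending at the base before its start. Capitals mark matches.
Tnfsf8: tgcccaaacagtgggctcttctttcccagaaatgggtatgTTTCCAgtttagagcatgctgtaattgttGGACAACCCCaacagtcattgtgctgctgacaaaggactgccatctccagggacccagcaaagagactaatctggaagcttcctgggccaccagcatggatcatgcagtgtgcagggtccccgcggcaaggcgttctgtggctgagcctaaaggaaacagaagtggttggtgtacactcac
Icos: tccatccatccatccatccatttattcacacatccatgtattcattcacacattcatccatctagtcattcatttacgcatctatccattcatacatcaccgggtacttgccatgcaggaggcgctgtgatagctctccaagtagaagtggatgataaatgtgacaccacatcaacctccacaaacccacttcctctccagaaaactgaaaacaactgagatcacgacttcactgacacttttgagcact
Cd27: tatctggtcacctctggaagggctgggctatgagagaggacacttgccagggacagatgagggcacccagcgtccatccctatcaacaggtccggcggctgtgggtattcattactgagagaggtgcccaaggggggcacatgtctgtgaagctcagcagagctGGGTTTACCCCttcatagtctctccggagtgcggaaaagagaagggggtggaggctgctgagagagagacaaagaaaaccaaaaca
The capitals of Tnfsf8 are an NFAT match (210 to 205 bases before the start) and an NF-kB match (181 to 172), which do not overlap. Those of Cd27 are 2 overlapping NF-kB matches, and Icos held none. In Tnfrsf9 the matches were GGGGATTTCC and GGGATTTCCC, which overlap, and TGAGTCA at 15 to 9 bases before the start, in a stretch that is also an exon of another Tnfrsf9 transcript. None of the 3 sets of letters lay in the windows of Tnfrsf4, Tnfrsf18, Cd28 or Tnfrsf19. A match is a description of these letters, and binding was not measured.

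Whether LIP changed these genes was asked first in uncultured cells. On day 0, 0 of 10 members passed an adjusted p of 0.05 by edgeR's quasi-likelihood test, against 0.427% of the 14064 genes tested, and DESeq2 called 0, against 1.44% of genes. At an unadjusted p under 0.05 there were 2, both lower in LIP, against 7.2% of genes in that direction. Tnfrsf19 had 11.3, 10.5 and 6.56 CPM in CTL and 5.91, 4.92 and 5.20 in LIP, so that no LIP library reached the lowest CTL library (log2 fold change -0.81, SE 0.23, adjusted p = 0.159). Such a gap with LIP lower was found for 1 of 10 members, against 9.83% of genes. Cd40lg had 55.5, 60.5 and 42.3 CPM in CTL and 44.1, 36.9 and 39.7 in LIP, which overlap through CTL 94 (log2 fold change -0.38, SE 0.13, adjusted p = 0.213). Without CTL 94, edgeR called 3 members: Tnfrsf19 (-1.02, adjusted p = 0.0123), Cd40lg (-0.52, 0.0117) and Icos (0.52, 0.0227), against 4.59% of all genes in that fit. Leaving out other single libraries raised the adjusted p of these 3 to as much as 0.502, 0.573 and 0.991. For the other 7 members the log2 fold change on day 0 lay between -0.16 (Cd27) and 0.39 (Tnfrsf9).

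After culture, 0 of 10 members passed an adjusted p of 0.05 between LIP and CTL on day 2 by edgeR, against 0% of the 14041 genes tested. At an unadjusted p under 0.05 there were 2, both higher in LIP, against 8.33% of genes in that direction, and DESeq2 called the same pair, Tnfrsf19 and Tnfsf8, at an adjusted p under 0.05, against 3.45% of genes. Values of LIP and CTL did not overlap for 3 of 10 members, Tnfrsf19, Tnfsf8 and Cd28, all higher in LIP, against 10.9% of genes in that direction. These are TMM-scaled CPM, and on total counts Cd28 overlapped.

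For Tnfrsf19, CTL 92, 93 and 97 had 0.738, 0.954 and 1.13 CPM, while LIP 90, 96 and 97 had 2.15, 6.07 and 6.59. LIP 90 was the lowest of the LIP libraries and still above every CTL library. The mean was 5.24-fold higher in LIP (log2 fold change 2.36, SE 0.49, edgeR unadjusted p = 0.00103, adjusted p = 0.120), which placed it 43rd from the highest among the genes tested. Without LIP 90 the log2 fold change was 2.75 (adjusted p = 0.000928), and 3 of 10 members (Tnfrsf19, Tnfsf8 and Tnfrsf1b) were called against 13.9% of all genes in that fit. Over the alternatives that kept all libraries it stayed between 2.07 and 2.40, and its adjusted p ran from 0.000812 to 0.528 over all of them and all libraries left out.

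Tnfsf8 was 1.53-fold higher in LIP on day 2, at 1743 ± 336 CPM against 1136 ± 156 (log2 fold change 0.61, SE 0.18, edgeR unadjusted p = 0.00834, adjusted p = 0.175). The lowest LIP library, LIP 90 (1481 CPM), was above the highest CTL library, CTL 92 (1280 CPM). Without LIP 90 the log2 fold change was 0.74 (adjusted p = 0.0151), and leaving out any 1 library kept it between 0.46 and 0.74 with an adjusted p of up to 0.554. Cd28 was higher in each LIP library by a narrow margin, with 983 CPM in LIP 96 against 982 in CTL 92 (log2 fold change 0.12, SE 0.12, adjusted p = 0.665). On total counts that gap was absent, with 945 CPM in CTL 92 against 944, 864 and 883 in LIP 90, 96 and 97.

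The strongly induced receptor genes showed no difference that passed the test on day 2. The log2 fold change of LIP over CTL was 0.063 (SE 0.13) for Tnfrsf4, 0.052 (SE 0.10) for Tnfrsf18, 0.14 (SE 0.17) for Tnfrsf9 and 0.27 (SE 0.20) for Icos. Those of Tnfrsf4 and Tnfrsf18 turned to -0.023 and -0.035 with total counts only. For Tnfrsf1b it was -0.28 (SE 0.15), with 73.7 CPM in LIP 90 among the CTL values and 49.5 and 56.0 in LIP 96 and 97 below them, and without LIP 90 it was -0.43 (adjusted p = 0.0433, against up to 0.795 without another library). Cd27 was at -0.10 (SE 0.19) and Cd40lg at -0.01 (SE 0.30), the latter at -0.48 (adjusted p = 0.0755, against up to 0.993 without another library) without LIP 90.

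**Figure D4:**
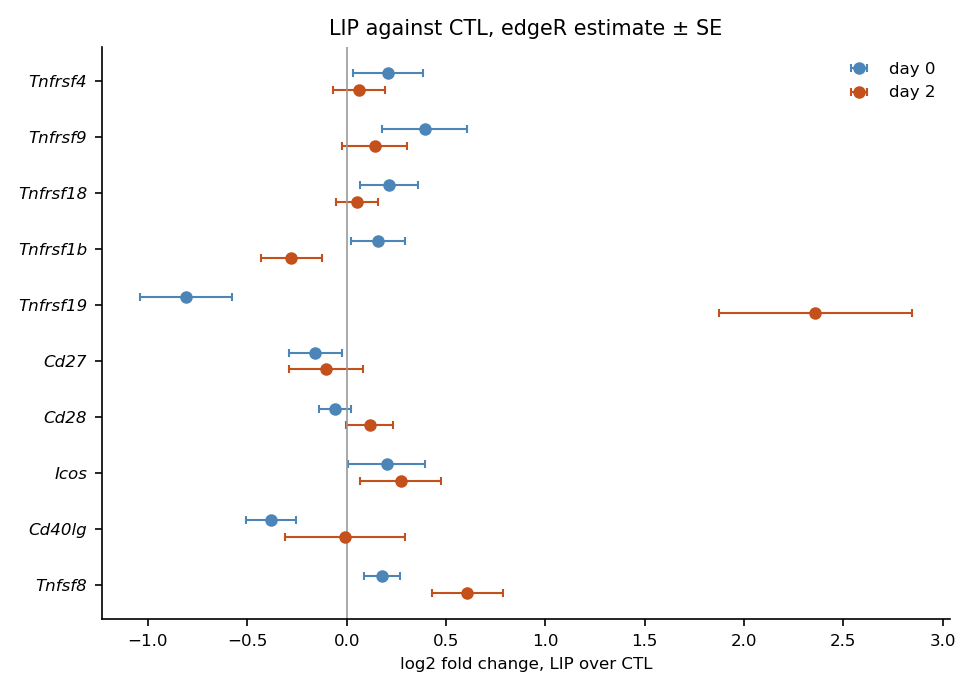
Log2 fold change of LIP over CTL for each member on day 0 (blue) and day 2 (orange), with dots for edgeR's estimate and bars for its standard error. Tnfrsf19 is at -0.81 on day 0 and 2.36 on day 2, Tnfsf8 is at 0.61 on day 2, and the other members lie between -0.38 and 0.39.

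Whether the effect of LIP differed between the days was tested as the interaction of group and day, which uses the same 12 libraries as the comparisons above. Of the 10 members 0 passed an adjusted p of 0.05 by edgeR, against 0.0517% of the 15475 genes tested, 2 had an unadjusted p under 0.05, both above 0, against 15.9% of genes in either direction and 8.65% above 0, and DESeq2 called 1, against 3.36% of genes. The interaction of Tnfrsf19 was 3.17 on the log2 scale (SE 0.55, unadjusted p = 5.06e-05, adjusted p = 0.0713), the 11th smallest p of all genes tested. It passed with DESeq2 (adjusted p = 9.28e-05), without CTL 94 (3.36, 0.0353, where 0.169% of all genes passed) and without LIP 90 (3.55, 6.90e-05, where 10.1% did), and leaving out 1 library could also raise its adjusted p to 0.212. The interaction of Tnfsf8 was 0.45 (SE 0.20, unadjusted p = 0.0465, adjusted p = 0.306).

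The partners of the members were followed in lists of related genes. Of 16 other TNF superfamily ligands 9 passed the filter on the 12 libraries, and on day 2 against day 0 there were 3 higher and 3 lower in each group at an adjusted p under 0.05. Of all genes 35.3% were higher and 33.7% lower in CTL, and 36.6% and 35.2% in LIP. Tnfsf4, the ligand of OX40, was nearly silent on day 0, with 0 to 5 counts a library, and had 35.8, 35.4 and 38.2 CPM in CTL on day 2. In LIP on day 2 it had 21.8, 5.23 and 7.37, all below the CTL libraries (log2 fold change -1.67, SE 0.43, edgeR unadjusted p = 0.00437, adjusted p = 0.150). Without LIP 90, the nearest to CTL, it was -2.53 (adjusted p = 5.27e-05, where 13.9% of all genes passed), and DESeq2 called it with all libraries (0.00373, where 3.45% did). Of the 9 ligand genes tested on day 2, edgeR gave 1 lower and 0 higher in LIP at an unadjusted p under 0.05, against 8.2% and 8.33% of genes. Tnf, a ligand of TNFR2, rose from 18.8 ± 2.19 to 65.3 ± 5.77 CPM in CTL and from 22.6 ± 0.693 to 75.6 ± 4.05 in LIP. Lta, which encodes lymphotoxin alpha, rose by 3.10 (SE 0.21) and 2.89 (SE 0.20) on the log2 scale. Ltb, Tnfsf10 (TRAIL) and Fasl fell in both groups. The ligands of GITR and CD27, Tnfsf18 and Cd70, had group means under 1 CPM throughout.

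Of the 22 other TNF receptor genes 15 passed the filter, with 8 higher and 4 lower on day 2 in CTL and 9 and 4 in LIP. Of all genes 35.3% were higher and 33.7% lower in CTL, and 36.6% and 35.2% in LIP. With at least 10 counts in every library 4 of 11 tested were higher in each group. Fitted on the 6 libraries of LIP only, 5 of 12 were higher. Tnfrsf8, which encodes CD30, the receptor of CD153, rose from 1.28 ± 0.587 to 30.7 ± 9.53 CPM in CTL and from 2.15 ± 1.14 to 31.5 ± 12.0 in LIP. On day 2 its log2 fold change of LIP over CTL was 0.03 (SE 0.30), beside the 0.61 of its ligand gene Tnfsf8. Eda2r and Tnfrsf10b, which encode receptors of ectodysplasin A2 and TRAIL, were the lowest of the list in LIP on day 2 at an unadjusted p under 0.05 (log2 fold changes -3.09, SE 0.52, and -0.74, SE 0.19), and neither passed the correction by edgeR's quasi-likelihood test (adjusted p = 0.101 and 0.142). Both passed without LIP 90 (-4.15, 0.000793, and -0.98, 0.00102), where 13.9% of all genes did. With all libraries both also passed by DESeq2 (3.45% of all genes), by the likelihood ratio test (3.97%), with no filter (2.57%) or with all 12 libraries in one fit (5.01%). Eda2r had 0 counts in every library of day 0, and on day 2 it had 10.7, 10.8 and 5.44 CPM in CTL but 2.06, 0.467 and 0.517 in LIP.

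Among 10 other genes of the CD28 family and its B7 ligands 8 passed the filter, with 6 higher and 2 lower in CTL and 6 higher and 1 lower in LIP on day 2. Of all genes 35.3% were higher and 33.7% lower in CTL, and 36.6% and 35.2% in LIP. Ctla4, the inhibitory receptor that shares the ligands of CD28, rose by 1.80 (SE 0.26) in CTL and 2.01 (SE 0.26) in LIP, and Pdcd1, which encodes PD-1, by 2.76 (SE 0.26) and 2.17 (SE 0.25). Cd80, a ligand of CD28, had 24.9, 21.3 and 19.4 CPM in CTL and 13.0, 8.69 and 12.5 in LIP on day 2, with no overlap (log2 fold change -0.95, SE 0.19, edgeR unadjusted p = 0.000977, adjusted p = 0.119). Btla, an inhibitory receptor, was also lower in each LIP library (-0.71, SE 0.22, adjusted p = 0.187). Of the 7 genes of this list tested on day 2, edgeR gave 2 lower and 1 higher in LIP at an unadjusted p under 0.05, against 8.2% and 8.33% of genes. Cd86, the other ligand of CD28, had 0.527, 0.477 and 2.04 CPM in CTL and 1.34, 4.49 and 4.78 in LIP (1.77, SE 0.65, adjusted p = 0.237). Pdcd1 had 74.05, 89.04 and 74.35 CPM in CTL on day 2 and 78.8, 42.4 and 53.8 in LIP, which overlap through LIP 90 (-0.45, SE 0.21, adjusted p = 0.332). Without LIP 90 all 4 passed, at -1.04 for Cd80 (adjusted p = 0.0108), -0.85 for Btla (0.0261), 2.19 for Cd86 (0.0234) and -0.70 for Pdcd1 (0.0152). In that fit 13.9% of all genes passed. With all libraries DESeq2 called Cd80 of these 4 (0.00567), where 3.45% of all genes passed. On day 2 Icosl, the ligand of ICOS, fell by 3.31 (SE 0.33) in CTL and fell by 3.30 (SE 0.31) in LIP. The sum of 8 B cell genes also fell, from 116 to 138 CPM on day 0 to 22.6 to 71.1 on day 2 in CTL. In LIP it went from 106 to 130 to 24.4 to 83.1. The median log2 fold change of these 8 genes was 0.88 in CTL and 1.54 in LIP, so that not all of them fell. The part of B cells in the fall of Icosl was not tested.

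**Figure D5:**
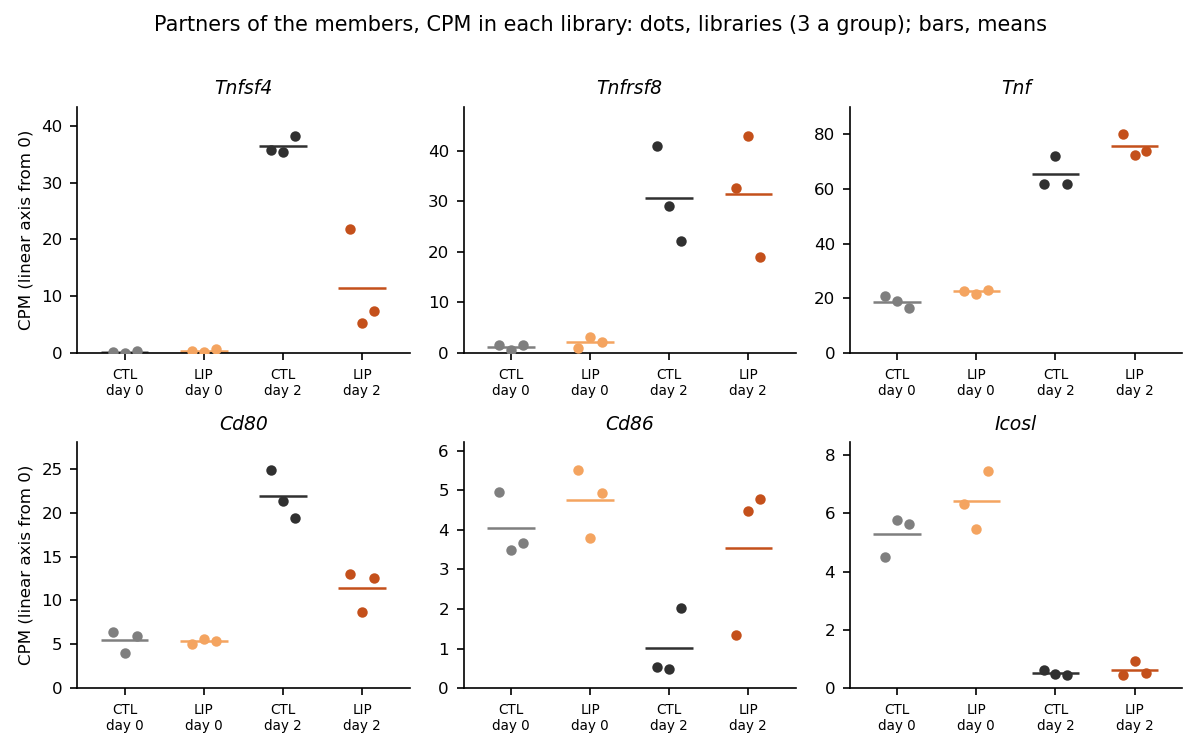
CPM (linear axis from 0) of genes for ligands or receptors of the members in each library: Tnfsf4 (for Tnfrsf4), Tnfrsf8 (for Tnfsf8), Tnf (for Tnfrsf1b), Cd80 and Cd86 (for Cd28) and Icosl (for Icos). Dots are libraries, 3 in each group, and bars are group means. On day 2 the LIP libraries lie below the CTL libraries for Tnfsf4 and Cd80 and overlap them for Tnfrsf8.

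Downstream of the receptors, all 17 genes of the TRAF adapter list were tested, with 7 higher and 5 lower on day 2 in CTL and 7 and 3 in LIP. Beside this list and the next 2 stand all genes, of which 35.3% were higher and 33.7% lower in CTL, and 36.6% and 35.2% in LIP. Nfkb2 and Relb, subunits of the noncanonical NF-kB pathway that OX40 and its relatives engage, rose by 2.36 (SE 0.15) and 1.47 (SE 0.22) in CTL and by 2.80 (SE 0.15) and 1.70 (SE 0.22) in LIP. Traf5, an adapter of OX40, CD27 and GITR, fell by 2.41 (SE 0.15) and 2.01 (SE 0.14). Of 16 CD28 signalling genes 4 were higher and 5 lower in CTL, and 6 and 5 in LIP. Malt1, a paracaspase of NF-kB signalling, rose by 1.78 (SE 0.15) and 1.40 (SE 0.15). Of 9 other costimulatory receptor genes tested there were 4 higher and 3 lower in each group, with Slamf1 up by 1.94 (SE 0.17) and 1.84 (SE 0.17) while Cd226 fell by 2.03 (SE 0.21) and 2.18 (SE 0.21). The balance of these 2 signalling lists depended on the scaling and, for CD28 signalling in CTL, on the filter (8 lower with at least 10 counts in every library). With upper-quartile factors or total counts, the TRAF list had 10 or 8 lower in CTL and 7 lower in LIP, and the CD28 signalling list 10 or 9 lower in CTL and 3 higher against 8 lower in LIP. In none of these 6 lists did edgeR's quasi-likelihood test, fitted as for the members, call a gene between LIP and CTL on day 0, on day 2 or in the interaction at an adjusted p under 0.05. Other settings did, with 0 to 1 higher and 0 to 6 lower on day 2 over the alternatives that kept all libraries. DESeq2 called 1 higher of 70 genes tested on day 0 (1.44% of all genes), 4 lower of 73 on day 2 (3.45%), and 3 above and 1 below 0 of 74 in the interaction (3.36%). Leaving out CTL 94 gave 2 higher and 3 lower of 70 on day 0 (4.59% of all genes). Leaving out LIP 90 gave 6 higher and 9 lower of 73 on day 2 (13.9%) and 9 above and 6 below 0 of 76 in the interaction (10.1%). At an unadjusted p under 0.05 the TRAF list had 1 higher and 3 lower on day 0 and 2 and 0 on day 2, and the CD28 signalling list 0 and 3, then 1 and 1, beside 6.67% (higher) and 7.2% (lower) of all genes on day 0 and 8.33% and 8.2% on day 2.

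Markers of other states moved with the groups. On day 0 the 7 regulatory T cell genes, all detected, summed to 338 to 448 CPM in CTL and 486 to 538 in LIP, with no overlap, and such cells carry the products of Tnfrsf4, Tnfrsf9 and Tnfrsf18, whose means were 1.14-fold, 1.29-fold and 1.15-fold higher in LIP with overlapping libraries. Of that list Ikzf2 (log2 fold change 0.49, SE 0.14) and Il2ra (0.34, SE 0.081) set the groups apart on day 0, and Foxp3, which defines these cells, was at 0.17 (SE 0.12). On day 2 the sum overlapped, at 1655 to 2266 CPM in CTL and 1890 to 2128 in LIP, while Foxp3 (-0.44, SE 0.12), Ikzf2 (-0.46, SE 0.12), Itgae (-0.81, SE 0.23) and Capg (-0.40, SE 0.13) were lower in each LIP library, none of them past the correction (edgeR adjusted p = 0.150 to 0.196). The other 3 genes of that list overlapped, with Il2ra at 0.069 (SE 0.16), Ikzf4 at 0.15 (SE 0.19) and Lrrc32 at -0.25 (SE 0.18). At an edgeR unadjusted p under 0.05, 2 of the 7 were higher in LIP on day 0, against 6.67% of genes in that direction. On day 2, 4 of the 7 were lower, against 8.2%. The share of all genes without overlap in these directions is not given here. The 8 immediate early genes summed on day 0 to 665 to 1498 CPM in CTL and 514 to 657 in LIP, with CTL 94 the lowest CTL library, as it was for Tnfrsf19 and Cd40lg. By edgeR 3 of the 8 were lower in LIP on day 0 at an adjusted p under 0.05, against 0.427% of genes in either direction. All 8 were lower at an unadjusted p under 0.05, against 7.2% of genes, with a median log2 fold change of -1.16. On day 2 the sums of the immediate early genes overlapped, at 717 to 947 in CTL and 814 to 1210 in LIP. The sums of the 6 naive T cell genes overlapped on day 0 but not on day 2, at 1224 to 1270 CPM in CTL and 1315 to 1830 in LIP. LIP 97 held the 1830, and LIP 90 and LIP 96 had 1315 and 1323. The median log2 fold change of these 6 genes on day 2 was -0.002, beside -0.006 for all genes. By edgeR 1 of them was higher in LIP at an unadjusted p under 0.05, against 8.33% of genes, and 0 passed the correction. The 4 follicular helper genes summed on day 0 to 57.4 to 61.2 in CTL and 54.2 to 55.9 in LIP, and on day 2 LIP 96 stood out at 328 against 32.8 to 91.98 in the other libraries. On day 2 the 8 B cell genes, all detected, summed to 22.6 to 71.1 CPM in CTL and to 24.4 in LIP 90, 83.1 in LIP 96 and 82.1 in LIP 97, and the 5 NK cell genes to 1.19 to 2.15 and to 1.97, 4.49 and 3.88 in the same order of libraries. The 2 CD8 genes summed to 4.42 to 6.32 in CTL and to 4.92, 13.2 and 9.18 in LIP. LIP 90 was the lowest LIP library for these 3 lists, as it was for Tnfrsf19, Tnfsf8 and Cd86. Myeloid, erythroid and pancreatic acinar genes summed to 2.77 to 13.7, 0.738 to 2.71 and 0.301 to 15.2 CPM over the libraries, with the groups overlapping on both days. The part of these in the differences between LIP and CTL was not tested.

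As a description of likeness, the gene outside the list whose log2 CPM followed a member most closely over the 12 libraries was Il2ra for Tnfrsf9 (Pearson's r = 0.998), Irf4 for Tnfrsf4 (0.997), Tk1 for Tnfrsf18 (0.997), Uba3 for Tnfsf8 (0.997), Psma3 for Cd28 (0.996) and Plscr1 for Icos (0.996). It was Dhx40 for Tnfrsf19 (0.973), Gm9522 for Cd27 (0.946) and AK157302 for Cd40lg (0.915). The 12 libraries form 2 clusters, the days, and likeness within a day was not computed.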

How the data were processed

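RNA-seq of splenic CD4+ T cells was analysed in 12 libraries, 3 for each of CTL and LIP on day 0 and day 2, assigned by the sample titles. RNA was depleted of rRNA, and directional libraries were sequenced on DNBSEQ-G400. The gene table that the authors deposited holds expected counts. Per the labels, FastQC 0.11.9 and Trimmomatic 0.38 were applied, then Bowtie2 and RSEM 1.3.0 on GRCm39. The study's methods name another Trimmomatic version and mapping with HISAT2, and the annotation release is not given in the sources used here. The authors also deposited, per day, a normalized signal per library, which was 0.949 to 1.06 times CPM on total counts for the members in the 10 libraries with a column of their name (all but LIP 96 and LIP 97) and served for symbols and that check only. Their columns of log2 fold changes, p-values and false discovery rates hold the study's comparisons and were not used, nor were 2 signal columns of libraries that the labels do not name.

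Expected counts were rounded to whole numbers. Of 55414 records, 27193 held 0 in every library. GENCODE M39 listed 54749 and gave positions, transcript lengths and starts. Symbols came from the deposited tables for 15174. In R 4.3.3 with edgeR 4.0.16, genes were filtered with filterByExpr, scaled by TMM and tested with the quasi-likelihood test. LIP and CTL were compared on each day's 6 libraries, and the days and the interaction of group and day on all 12. P-values were adjusted over all genes tested by the Benjamini-Hochberg method at 0.05. CPM are TMM-scaled. Alternatives were RLE, upper-quartile or total-count scaling, DESeq2 1.42.0, the likelihood ratio test, no filter, at least 10 counts in every library, other sets of libraries, each library left out and, added after the data were seen, the library's number as a block in limma 3.58.1. The scripts were tested on simulated counts.

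The members, the lists of related and marker genes and the tests were chosen with earlier results of these data known. Named are all members, the up to 3 highest and 3 lowest genes of each list past the threshold (unadjusted for LIP against CTL), marker lists as sums, and the gene most like each member, of which some are not reported here. Tnfsf18, Cd70 and Ctla4, as partners of members, and Foxp3, Ikzf2, Il2ra, Itgae, Capg, Ikzf4 and Lrrc32, as regulatory T cell genes, were also named after their values were seen. Total counts of 6249018 to 12866718 a library put 3 counts at 0.480 CPM or less, and intervals cover counting error only.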

Additional observations from a re-analysis of the deposited data

Results flagged for a closer look

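The difference in the LIP effect between day 2 and day 0 was singled out for 2 members because its test gave an unadjusted p under 0.05. For Tnfrsf19 the difference was 3.17 on the log2 scale: LIP was lower than CTL in 3 of 3 libraries on day 0 and higher in 3 of 3 on day 2. For Tnfsf8 it was 0.45, with LIP above CTL in 3 of 3 libraries on day 2 and overlapping it on day 0. Both failed the correction over all genes with edgeR (adjusted p = 0.0713 and 0.306), and 15.9% of all genes tested had an unadjusted p under 0.05. Tnfrsf19 rests on 7 to 87 counts a library.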

How the results depend on the processing

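With the library's number as a replicate block (limma voom, estimated correlation -0.14, all 12 libraries), chosen after seeing the data, 1 member was called on day 2 (Tnfsf8, adjusted p = 0.0289), against 3.64% of all genes. Between the days in LIP 7 members were called, against 71.3% of all genes, and Cd27 was lost (0.0567). No other call of a member changed. The numbers were not taken to pair the libraries: the deviations of the 4 same-numbered pairs from their group means correlated at -0.055 to 0.10, against -0.14 to 0.11 for pairs of different numbers. Of the counts of members called, those for the days did not move by over 1.5 times under any alternative. On day 0, 0 became 2 without a filter (2.52% of all genes) and, leaving out 1 library, 0 to 3 (0.0904% to 4.59%). On day 2, 0 became 2 with DESeq2 (3.45%), the likelihood ratio test (3.97%), no filter (2.57%) or all 12 libraries in one fit (5.01%), and 0 to 3 leaving out 1 library (0% to 13.9%). For the interaction, 0 became 1 with total counts only (0.627%), DESeq2 (3.36%), the likelihood ratio test (3.41%) or no filter (2.89%), and 0 to 1 leaving out 1 library (0.00626% to 10.1%). Apart from the block, the genes behind these counts are Tnfrsf19 throughout, with Cd40lg and Icos on day 0 and Tnfsf8 and Tnfrsf1b on day 2.

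Values that turned in sign were these, all in comparisons in which the member was not called with all libraries, TMM and the filter. With total counts only, the log2 fold change of LIP over CTL was 0.011 for Cd28 on day 0, and -0.023 for Tnfrsf4 and -0.035 for Tnfrsf18 on day 2. That of Cd40lg on day 2 was 0.00413 with RLE factors, 0.00226 with DESeq2, 0.031 without a filter and 0.00756 with all 12 libraries in one fit. Its change from day 0 to day 2 in CTL was -0.20 with upper-quartile factors and -0.10 with total counts, and that of Tnfrsf1b was 0.018 without a filter. With total counts the interaction was -0.10 for Cd27 and -0.086 for Icos. Leaving out 1 library, LIP over CTL ranged on day 0 from -0.32 to 0.00587 for Cd27 and from -0.00682 to 0.52 for Icos, and on day 2 from -0.018 to 0.14 for Tnfrsf4, from -0.00604 to 0.24 for Tnfrsf9, from -0.29 to 0.052 for Cd27 and from -0.48 to 0.24 for Cd40lg. The change between the days ranged in CTL from -0.16 to 0.11 for Tnfrsf1b and from -0.021 to 0.20 for Cd40lg, and in LIP from -0.37 to 0.25 for Tnfrsf19 and from -0.017 to 0.73 for Cd40lg, which was called without LIP 96 (adjusted p = 0.0163). The interaction ranged from -0.24 to 0.040 for Tnfrsf4, from -0.26 to 0.039 for Tnfrsf18, from -0.11 to 0.22 for Cd27, from -0.25 to 0.35 for Icos and from -0.11 to 0.64 for Cd40lg. The cause was not tested.

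With 3 libraries a group, the difference of Tnfrsf19 on day 2 (2.36, SE 0.49) did not pass the correction by edgeR's quasi-likelihood test. With the same libraries it passed by DESeq2 (adjusted p = 0.00195) and by the likelihood ratio test (0.00101), so the call depended on the test. Differences of several standard errors could thus be missed by the quasi-likelihood test. Tnfrsf19 in CTL on day 2 rests on 7 to 10 counts a library.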
